A study of Homo sapiens with 6 samples.

Results

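The histone genes of KGN cells were followed under knockdown of SNHG5. They were taken as every gene name of the count table that began with HIST1H to HIST4H, H2AF, H1F or H3F, which gave 87 of 20030 names. Of these, 71 were replication-dependent histone genes (HIST names, 6 for the linker histone H1, 17 for H2A, 18 for H2B, 15 for H3 and 15 for H4), and 16 were variant genes (H1F, H2AF and H3F names). KGN is an established human cell line derived from a granulosa cell tumour of the ovary, and its genotype is labelled WT. The 6 libraries formed 2 groups, 3 from cells given an siRNA that targets the long noncoding RNA SNHG5 and 3 from cells transfected with a negative control siRNA, all harvested 48 h after transfection. SNHG5 itself was not analysed here.

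Histones are the proteins that DNA is wound around. Replication-dependent histone genes lie in clusters, mostly lack introns and are switched on as cells enter S phase, when new DNA has to be packaged. Their mRNAs normally end in a conserved stem-loop in place of a poly(A) tail, and the stem-loop is bound by SLBP, which is needed to cut, translate and later degrade them. Variant (replacement) histone genes make ordinary polyadenylated mRNA throughout the cell cycle, and their proteins are put into chromatin outside replication. Some replication-dependent genes also give polyadenylated transcripts, and a library of poly(A) RNA sees chiefly those.

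Both kinds of 3′ end were read from the GENCODE v29 transcripts (GRCh38). The stem-loop was found in 32 of the 71 replication-dependent genes, and 35 of the 71 have models that stop at the stop codon and so leave out the region where it would lie. Of the 32 genes, 22 also had a polyadenylation signal (AATAAA or ATTAAA) within the last 40 bases of an annotated transcript. The search did not require the signal to follow the stem-loop. In HIST1H4J it comes before the stem-loop, which ends 6 bases before the end of the transcript. Among the 16 variant genes, 14 had a signal within the last 40 bases and 1, H2AFX, had the stem-loop. Over all 19940 protein-coding genes, 58 (0.291%) had the stem-loop. The stem-loops below show the usual form, its form in H4 and H2AFX with a C·G pair in place of a T·A pair in the stem, and the altered loop of HIST1H3E, with capitals for the bases that pair.
HIST1H2AC: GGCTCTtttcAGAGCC
HIST1H2BD: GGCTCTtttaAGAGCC
HIST1H3E: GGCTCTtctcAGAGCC
HIST1H4H: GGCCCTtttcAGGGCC
H2AFX: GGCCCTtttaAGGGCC
The last 30 bases of annotated transcripts show the other kind of end, with the last match to a polyadenylation signal in capitals. They come from HIST1H2BD, both of whose annotated ends carry a signal, from HIST1H2BJ and HIST2H2BE, and from the variant genes H2AFZ, H3F3A and H3F3B. HIST1H2BJ-203 and H3F3A-201 also hold an earlier match, left in lower case. Which match is used was not tested.
HIST1H2BD-202: ttcAATAAAtgagttgtaatcatttcattc
HIST1H2BD-201: taattAATAAAatctgcggagaattgtaaa
HIST1H2BJ-203: gaataaatgAATAAAgtaatattcctctgc
HIST2H2BE-201: gttattAATAAAgttaccaattaatttaaa
H2AFZ-201: ggataagttcAATAAAggtcatatcccaaa
H3F3A-201: taagtttgctattaaaatacATTAAActat
H3F3B-201: atgagactaaAATAAAatttttgaagttaa
In HIST1H2BD-202 the stem-loop and the signal lie close together, since the stem-loop ends 39 bases before the end of the transcript, while in HIST2H2BE the stem-loop lies 1729 bases before it.

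Variant genes carried nearly all of the histone reads. The 71 replication-dependent genes together had 896, 961 and 777 counts in the SNHG5 siRNA libraries and 687, 770 and 663 counts in the control siRNA libraries, or 0.00335% to 0.00484% of all counts over the 6 libraries. The 16 variant genes had 54266, 52047 and 46903 counts with SNHG5 siRNA and 48260, 50131 and 43903 counts with control siRNA. Among the replication-dependent genes, 26 had a count of 0 in all 6 libraries and a further 16 had 1 to 10 counts in all. A count of 0 in a library still allows 3 counts, or 0.135 to 0.165 CPM here (CPM are counts after scaling to library size). Low expression of these genes was therefore not detectable at this depth. HIST2H2BF had 0 counts in every library but 0.0389 FPKM (per length and depth, from the deposited table) in SNHG5 siRNA replicate 1, so a count of 0 need not mean no reads. The part of reads shared between like genes, of short gene models and of RNA selection in these counts was not tested.

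Per length, H2AFZ, which encodes the H2A variant H2A.Z, was the highest histone gene, with a mean FPKM (fragments per length and depth, from the deposited table) of 622 with SNHG5 siRNA and 552 with control siRNA. H3F3B was at 222 FPKM with SNHG5 siRNA and 262 FPKM with control siRNA, H2AFX at 263 FPKM with SNHG5 siRNA and 206 FPKM with control siRNA, and H3F3A at 177 FPKM with SNHG5 siRNA and 157 FPKM with control siRNA. The highest replication-dependent gene was HIST1H1C, which encodes the linker histone H1.2, at 34.4 FPKM with SNHG5 siRNA and 26.7 FPKM with control siRNA. The next, HIST3H2A, an H2A gene outside the major clusters, was at 10.8 FPKM with SNHG5 siRNA and 8.61 FPKM with control siRNA. No H4 gene averaged above 1.07 FPKM over the 6 libraries (HIST1H4C), although H4 has no variant gene among the names searched. Variant genes known from the germline gave next to no reads: H1FNT and H2AFB1 to H2AFB3 had 0 counts in every library, and H1FOO, the oocyte H1, had 1 count in all. The levels plot shows the gap between the 2 kinds.

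**Figure D1:**
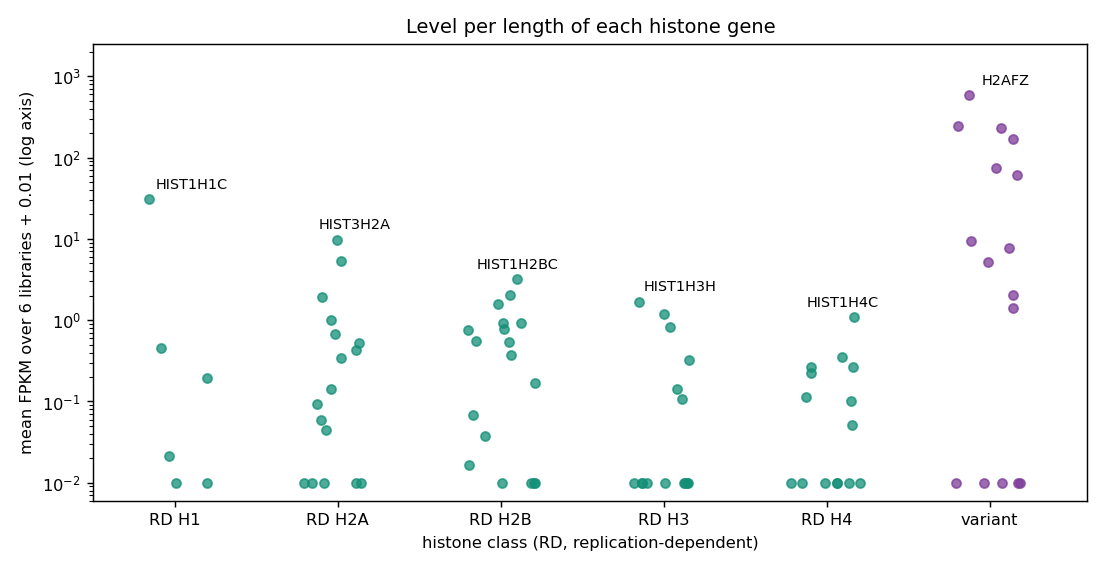
Mean FPKM over the 6 libraries of each of the 87 histone genes (points, with 0.01 added so that 0 can be drawn on the log axis), by histone class; the horizontal spread within a class has no meaning and the highest gene of each class is named. HIST1H1C stands alone among replication-dependent genes at 30.6 FPKM, while 6 variant genes exceed it.

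Only members with enough counts were tested (edgeR's filter on low counts): 12 of 71 replication-dependent and 11 of 16 variant genes, leaving 59 and 5 untested. A gene was called at an adjusted p under 0.05 in edgeR's quasi-likelihood test, adjusted by Benjamini-Hochberg over the 12508 genes tested. Of the 12 replication-dependent genes, 4 were called (33.3%), all higher with SNHG5 siRNA, and of the 11 variant genes 6 were called (54.5%), 5 higher and 1 lower. Over all genes tested 40.2% were called, 20.3% higher and 19.9% lower, so the 10 of 23 histone genes (43.5%) were close to the share in the table. Of all called genes, 50.5% were higher, but 39.9% with upper-quartile scaling, where 3 replication-dependent genes (all higher) and 3 variant genes (2 higher, 1 lower) were called. CPM of the groups did not overlap for 6 of the 12 and 6 of the 11, against 49.8% of all genes tested. The median log2 fold change was 0.33 over the 12 replication-dependent genes and 0.05 over the 11 variant genes, against -0.01 over all genes tested, and a difference between the kinds was not tested because members are not replicates. Without SNHG5 siRNA replicate 2 the gap between the 2 medians was 0.12 in place of 0.28. Nothing in the labels tells whether the replicates came from different cultures, so the p-values cover the spread among these 6 libraries and no more, and in such bulk RNA fewer cells of a type and less RNA per cell cannot be told apart.

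**Figure D2:**
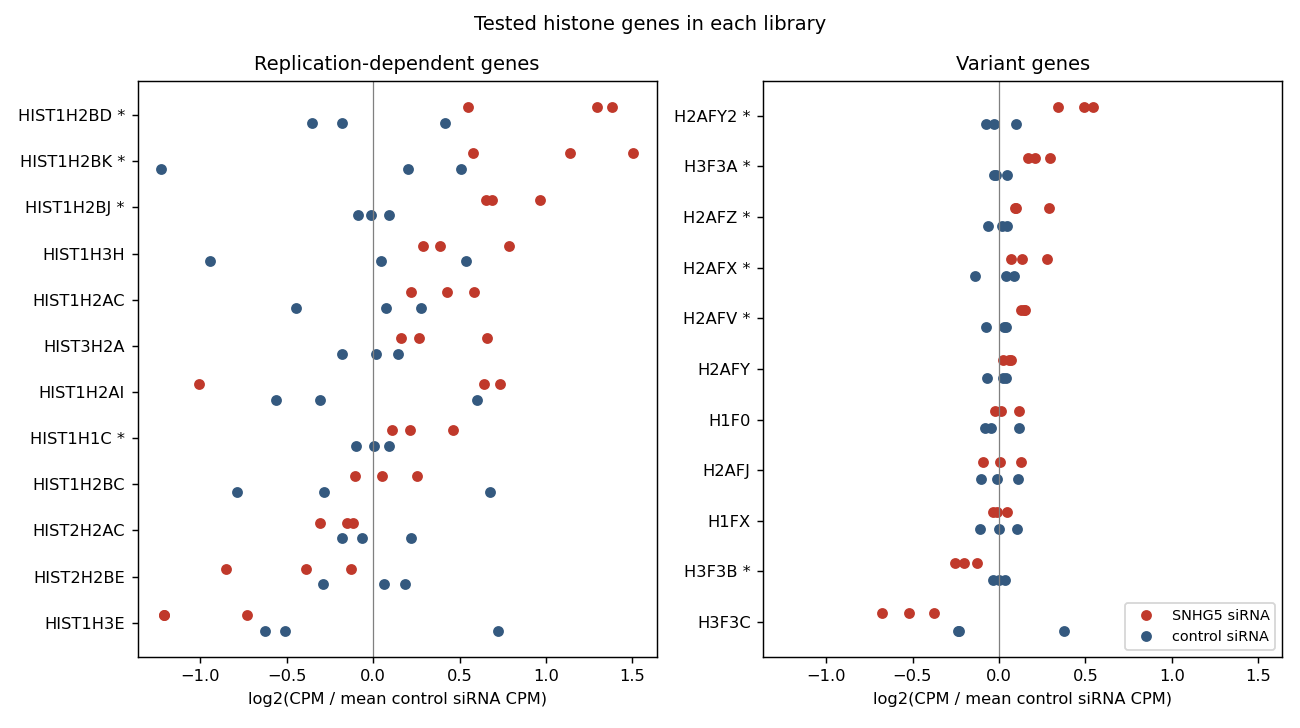
CPM of each tested histone gene in each library as log2 of its ratio to the mean of the control siRNA libraries (SNHG5 siRNA points above, control siRNA points below; 3 libraries each), replication-dependent genes left and variant genes right, sorted by log2 fold change; an asterisk marks a called gene. Replication-dependent genes spread more widely between libraries than variant genes, but most of them also had far fewer counts. Among the variant genes H3F3C, with the fewest counts (205 in all), spread most. HIST1H2BD, HIST1H2BJ and HIST1H2BK lie farthest right of the called genes.

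The largest changes that passed the test were in H2B genes. HIST1H2BD had 1.99, 2.11 and 1.18 CPM in the 3 SNHG5 siRNA libraries, against 0.635, 1.08 and 0.715 CPM in the control siRNA libraries. The groups did not overlap, although SNHG5 siRNA replicate 3 came close to control siRNA replicate 2. The log2 fold change was 1.12 ± 0.30 (SE; adjusted p = 0.00596, edgeR), a 2.17-fold rise that stayed called in all 16 alternative settings tried, although on the log2(FPKM + 1) scale it was 0.50. HIST1H2BD lies at chr6:26158146-26171349 on the plus strand (GRCh38), where GENCODE v29 also places LARP1P1 on the same strand and AL353759.1 on the other, and the strand used in counting was not given in the sources used here. HIST1H2BK had 0.767, 1.46 and 1.13 CPM with SNHG5 siRNA, against 0.733, 0.591 and 0.220 CPM with control siRNA, so the lowest SNHG5 siRNA library lay just above the highest control library. Its log2 fold change was 1.07 ± 0.38 (adjusted p = 0.0325, edgeR). HIST1H2BJ had 1.63, 1.31 and 1.34 CPM with SNHG5 siRNA, against 0.782, 0.887 and 0.825 CPM with control siRNA, clear of each other, with a log2 fold change of 0.78 ± 0.27 (adjusted p = 0.0273, edgeR). These values rest on few reads, since HIST1H2BD, HIST1H2BJ and HIST1H2BK had 157, 137 and 99 counts over all 6 libraries. With DESeq2 in place of edgeR the calls of HIST1H2BK (adjusted p = 0.0838) and HIST1H2BJ (adjusted p = 0.123) were lost. The call of HIST1H2BK also ended without SNHG5 siRNA replicate 2 or 3 or control siRNA replicate 2 or 3 (adjusted p from 0.0590 to 0.149), and that of HIST1H2BJ without SNHG5 siRNA replicate 1 or any control replicate (adjusted p from 0.0608 to 0.112). With limma on FPKM plus 0.1 the log2 fold change of HIST1H2BJ was 0.49 (adjusted p = 0.0515, limma). With FPKM plus 1 it was 0.33, and that of HIST1H2BK was 0.57 (adjusted p = 0.00952, limma). The added 1 shrinks these values too, as HIST1H2BK was at 1.28 FPKM with SNHG5 siRNA and 0.536 FPKM with control siRNA.

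The other 2 tested H2B genes did not pass. HIST2H2BE, a cluster 2 gene known for long polyadenylated transcripts, had 2.89, 2.41 and 1.75 CPM with SNHG5 siRNA and 2.59, 3.60 and 3.3 CPM with control siRNA, with a log2 fold change of -0.41 ± 0.21 (adjusted p = 0.117, edgeR). HIST1H2BC had 1.81, 2.31 and 2.01 CPM with SNHG5 siRNA, inside the range of 1.12, 3.10 and 1.59 CPM with control siRNA. H2B genes encode nearly identical proteins and their coding sequences are alike, so reads may be split between them and the value of a single gene is uncertain.

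HIST1H1C, the most abundant replication-dependent gene, had 18.6, 23.7 and 20.0 CPM with SNHG5 siRNA, against 16.1, 17.2 and 18.3 CPM with control siRNA. The groups were separate by a small margin and SNHG5 siRNA replicate 2 stood highest. The log2 fold change was 0.27 ± 0.10 (adjusted p = 0.0307, edgeR), and without SNHG5 siRNA replicate 2 it was 0.17 (adjusted p = 0.130), which ended the call. DESeq2 (adjusted p = 0.0560), upper-quartile scaling (adjusted p = 0.0667) and leaving out control siRNA replicate 1 (adjusted p = 0.129) or 2 (adjusted p = 0.0668) ended it as well. No other H1 gene of the clusters was tested, and HIST1H1E, the next, had 18 counts over the SNHG5 siRNA libraries and 16 over the control libraries.

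None of the 4 tested H2A genes and neither tested H3 gene was called. HIST3H2A had 3.20, 4.53 and 3.45 CPM with SNHG5 siRNA, against 3.18, 2.91 and 2.53 CPM with control siRNA, without overlap but with a log2 fold change of 0.37 ± 0.18 that did not pass (adjusted p = 0.111, edgeR). HIST1H2AC (log2 fold change 0.41), HIST1H2AI (0.30) and HIST2H2AC (-0.18) overlapped between groups. The 2 H3 genes had opposite signs. HIST1H3E had 0.361, 0.503 and 0.360 CPM with SNHG5 siRNA, against 0.586, 0.542 and 1.37 CPM with control siRNA, where replicate 3 stood far above the rest (log2 fold change -0.995 ± 0.433, adjusted p = 0.0745, edgeR). HIST1H3H was at 1.08 ± 0.20 CPM with SNHG5 siRNA and 0.759 ± 0.353 CPM with control siRNA (SD, n = 3 each), with overlap. All 15 H4 genes were untested, and their summed counts were 17, 23 and 21 with SNHG5 siRNA, against 7, 19 and 6 with control siRNA, with overlap. Of all untested genes HIST1H2BN was the highest, with 17, 13 and 8 counts in the SNHG5 siRNA libraries and 8, 9 and 5 in the control libraries. HIST1H2AM had 10, 9 and 9 counts with SNHG5 siRNA and 10, 7 and 2 with control siRNA. HIST1H3B, one of the S-phase H3.1 genes, had 9, 3 and 6 counts with SNHG5 siRNA and 10, 5 and 12 with control siRNA, and both overlapped.

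Summed over all 71 genes, tested or not, replication-dependent CPM was 40.4, 48.3 and 40.01 in the SNHG5 siRNA libraries, against 33.6, 37.9 and 36.5 in the control libraries. Each SNHG5 siRNA library lay above each control library, and the means of 42.9 ± 4.69 and 36.0 ± 2.22 CPM (SD, n = 3 each) differed by 0.25 on the log2 scale, or 0.16 without SNHG5 siRNA replicate 2. HIST1H1C alone held 48.3% of these counts with SNHG5 siRNA and 47.9% with control siRNA. Without it the sums were 21.9, 24.6 and 20.0 CPM with SNHG5 siRNA and 17.5, 20.7 and 18.1 CPM with control siRNA, which overlap, although the log2 ratio of the means was then 0.24 and the FPKM sums without HIST1H1C did not overlap. Summed variant CPM was 2450, 2618 and 2415 with SNHG5 siRNA and 2358, 2469 and 2414 with control siRNA, also overlapping. The variant FPKM sums did not overlap, at 1406, 1560 and 1392 with SNHG5 siRNA and 1291, 1374 and 1323 with control siRNA. As a share of all histone CPM, which does not depend on library scaling, replication-dependent genes made up 1.62%, 1.81% and 1.63% with SNHG5 siRNA, against 1.40%, 1.51% and 1.49% with control siRNA. SNHG5 siRNA replicate 2 was the highest library in both sums.

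**Figure D3:**
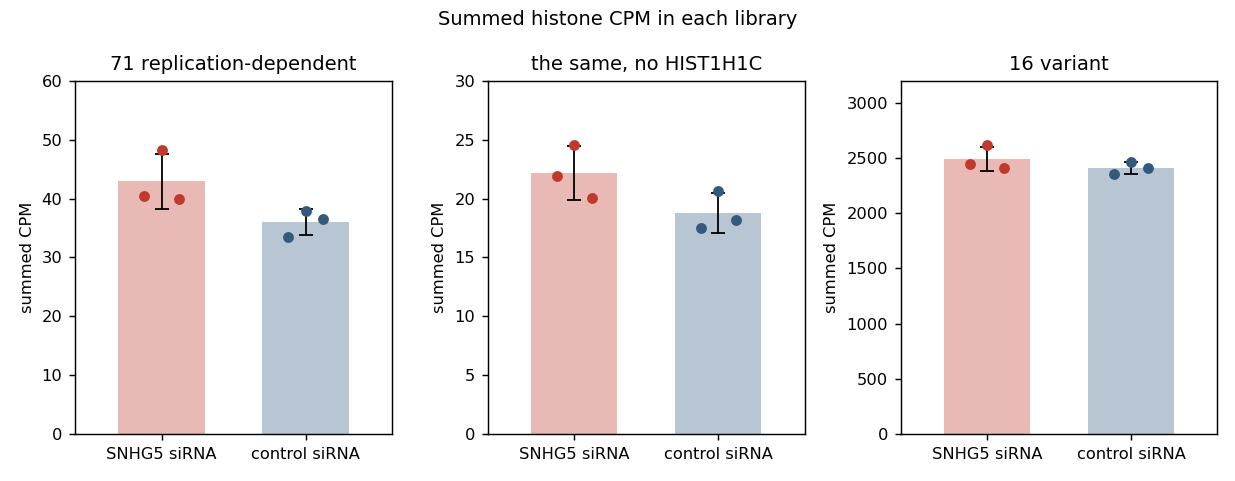
Summed CPM in each library (points) with the group mean (bar) and SD (error bar; n = 3), for the 71 replication-dependent genes, for the same genes without HIST1H1C, and for the 16 variant genes; each panel has its own axis from 0. The groups are separate in the left panel alone, where the SNHG5 siRNA libraries run from 40.01 to 48.3 and the control libraries from 33.6 to 37.9.

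Among the variant genes, the pair that encodes histone H3.3 moved in opposite directions. H3F3A and H3F3B encode the same protein, the H3 that is deposited outside replication, from different mRNAs. H3F3A had 167, 182 and 172 CPM with SNHG5 siRNA, against 146, 153 and 147 CPM with control siRNA. The groups did not overlap, and the log2 fold change was 0.23 ± 0.05 (adjusted p = 0.00201, edgeR). H3F3B had 666, 700 and 642 CPM with SNHG5 siRNA, against 746, 765 and 784 CPM with control siRNA, lower in each library, with a log2 fold change of -0.19 ± 0.05 (adjusted p = 0.00344, edgeR). Both calls held in all 16 alternative settings. H3F3A made up 20.0%, 20.7% and 21.1% of the counts of the pair with SNHG5 siRNA, against 16.3%, 16.7% and 15.7% with control siRNA. The log2 ratio of H3F3A to H3F3B, which library scaling cannot change, was higher by 0.42 (exact permutation test, 2-sided, p = 0.1, the smallest that 3 against 3 libraries allow). The pair summed to 843 ± 35.4 CPM with SNHG5 siRNA and 914 ± 19.9 CPM with control siRNA (SD, n = 3 each), without overlap. H3F3A, H3F3B and H2AFZ have processed pseudogenes elsewhere in the genome that can take up their reads, and H3F3B overlaps UNK by 1123 bases on the other strand. The third H3 variant gene, H3F3C, a young copy of H3F3B that encodes H3.5, had 1.40, 1.26 and 1.54 CPM with SNHG5 siRNA and 1.71, 2.61 and 1.70 CPM with control siRNA, with a log2 fold change of -0.52 ± 0.24 that did not pass (adjusted p = 0.0916, edgeR).

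**Figure D4:**
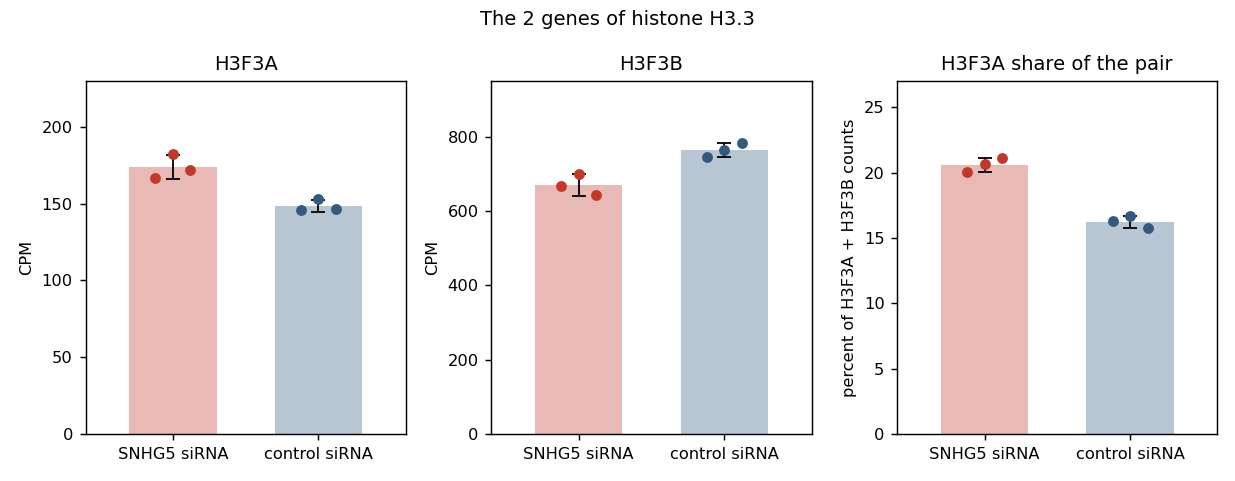
CPM of H3F3A and of H3F3B and the share of H3F3A in the counts of both, in each library (points) with the group mean (bar) and SD (error bar; n = 3). H3F3A is higher and H3F3B lower in every SNHG5 siRNA library than in any control library, and the share is 20.6% with SNHG5 siRNA and 16.2% with control siRNA on average.

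Both H2A.Z genes were higher with SNHG5 siRNA. H2AFZ had 672, 771 and 674 CPM with SNHG5 siRNA, against 604, 650 and 637 CPM with control siRNA, with a log2 fold change of 0.16 ± 0.06 (adjusted p = 0.0245, edgeR). SNHG5 siRNA replicate 2 stood highest, and without it the fold change was 0.10 (adjusted p = 0.0533), so that the call ended. H2AFV, the second H2A.Z gene, had 408, 406 and 402 CPM with SNHG5 siRNA, against 349, 375 and 378 CPM with control siRNA, with a log2 fold change of 0.14 ± 0.05 (adjusted p = 0.0253, edgeR). Upper-quartile scaling ended both calls, with an adjusted p of 0.0997 for H2AFZ and 0.111 for H2AFV, and limma on FPKM did so too (0.0909 to 0.154), as did removing the GC trend for H2AFV (0.0760). The call of H2AFZ also ended without control siRNA replicate 1 or 3 (adjusted p = 0.120 and 0.0633), and that of H2AFV without SNHG5 siRNA replicate 1 or 3 or control siRNA replicate 1 or 2 (adjusted p from 0.0519 to 0.164). Together the 2 genes gave 1111 ± 57.3 CPM with SNHG5 siRNA and 997 ± 38.6 CPM with control siRNA (SD, n = 3 each), without overlap.

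H2AFX, which encodes the H2A that is phosphorylated around DNA breaks and which has the stem-loop printed above as well as a later polyadenylation signal, had 225, 249 and 216 CPM with SNHG5 siRNA, against 211, 218 and 186 CPM with control siRNA. The groups overlapped, and its log2 fold change of 0.16 ± 0.06 was the call nearest to the threshold (adjusted p = 0.0488, edgeR). It was lost with DESeq2 (adjusted p = 0.0510), with upper-quartile scaling (adjusted p = 0.151) and without SNHG5 siRNA replicate 1 (adjusted p = 0.0688) or 2 (adjusted p = 0.0818) or control siRNA replicate 1 (adjusted p = 0.0653) or 3 (adjusted p = 0.255). It was larger with the GC trend removed (0.29, adjusted p = 0.000235) and with FPKM plus 1 (0.35, adjusted p = 0.0116). H2AFY2 encodes macroH2A2, an H2A with a large extra domain found in silent chromatin, and had the largest rise among the variant genes that passed. It was at 24.1, 23.2 and 20.9 CPM with SNHG5 siRNA, against 17.7, 15.7 and 16.2 CPM with control siRNA, clearly apart, with a log2 fold change of 0.46 ± 0.09 (adjusted p = 0.000293, edgeR) that stayed called in all 16 alternative settings. H2AFY, the main macroH2A gene, was at 202 ± 3.48 CPM with SNHG5 siRNA and 195 ± 7.98 CPM with control siRNA (SD, n = 3 each) and did not pass (log2 fold change 0.05, adjusted p = 0.464, edgeR). H2AFY2 therefore made up 10.1% of the macroH2A counts with SNHG5 siRNA, against 7.82% with control siRNA. GENCODE v29 places AIFM2 across 14058 bases of H2AFY2 on the other strand.

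The remaining variant genes were not called. H1F0, the linker histone of differentiated and resting cells, was at 13.8 ± 0.682 CPM with SNHG5 siRNA and 13.5 ± 1.00 CPM with control siRNA. H1FX, another linker histone, was at 64.9 ± 1.91 CPM with SNHG5 siRNA and 64.8 ± 4.80 CPM with control siRNA, and H2AFJ, an H2A variant, was at 5.73 ± 0.443 CPM with SNHG5 siRNA and 5.66 ± 0.421 CPM with control siRNA (SD, n = 3 each). The signs of these small differences turned round under upper-quartile scaling.

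Promoters were read from RefSeq (GRCh38.p14, 250 bases before to 50 after each start), which matched 68 of the 87 members, 57 replication-dependent and 11 variant. CCAAT, bound by the factor NF-Y, was found on either strand in 82.5% of the replication-dependent and 81.8% of the variant promoters, against 34.6% of all 35116 promoters in the table. The octamer ATTTGCAT, bound by the factor made by POU2F1, was in 42.1% of the replication-dependent and 9.09% of the variant promoters, against 1.77% of all. By class it was in 81.2% of the H2B and 78.6% of the H2A promoters and in 0 of the 6 H1, 8 H3 and 13 H4 promoters. TATAAA was in 64.9% of the replication-dependent and 36.4% of the variant promoters, against 11.5% of all. An E2F word (TTTGGCGC, TTTCCCGC, TTTGCCGC or TTTCGCGC) was in 26.3% of the replication-dependent and 0 of the 11 variant promoters, against 3.31% of all. These shares count shared DNA more than once, because 22 of the replication-dependent genes form 11 divergent H2A and H2B pairs whose windows overlap. Genes of a pair could differ widely in counts: HIST1H2BJ had 137 counts and HIST1H2AG, whose window shares 253 bases with it, had 17, while HIST3H2A had 398 and HIST3H2BB had 16. The promoters of HIST1H2BJ, the called H2B gene with a RefSeq entry, at chr6:27132746-27133045 on the minus strand, and of H2AFZ, at chr4:99950226-99950525 on the minus strand, are shown 5′ to 3′ with matches to these words on either strand in capitals. In HIST1H2BJ the first TATAAA match overlaps a match on the other strand, and the E2F word directly follows a CCAAT match. A match is a description of the letters and not evidence of binding.
HIST1H2BJ promoter: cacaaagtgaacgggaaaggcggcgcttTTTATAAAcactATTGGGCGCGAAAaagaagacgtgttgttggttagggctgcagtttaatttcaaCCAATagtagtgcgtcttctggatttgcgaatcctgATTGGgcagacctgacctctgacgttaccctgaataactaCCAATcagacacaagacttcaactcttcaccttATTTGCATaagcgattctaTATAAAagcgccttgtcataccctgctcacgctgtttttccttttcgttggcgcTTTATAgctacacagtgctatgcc
H2AFZ promoter: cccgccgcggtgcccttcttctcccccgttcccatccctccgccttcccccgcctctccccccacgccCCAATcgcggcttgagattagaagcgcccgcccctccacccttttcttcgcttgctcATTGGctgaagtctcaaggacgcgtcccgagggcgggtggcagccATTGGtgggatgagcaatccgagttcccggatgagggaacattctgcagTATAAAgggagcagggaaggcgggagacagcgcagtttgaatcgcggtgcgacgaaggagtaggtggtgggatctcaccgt

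SLBP, which binds the stem-loop at the 3′ end of histone mRNA, had 156, 181 and 157 CPM with SNHG5 siRNA, against 143, 147 and 149 CPM with control siRNA. The groups did not overlap and the log2 fold change was 0.17 ± 0.06 (adjusted p = 0.0263, edgeR; exact permutation test of the CPM, 2-sided, p = 0.1, the smallest possible), but the call ended with upper-quartile scaling (adjusted p = 0.0922), without SNHG5 siRNA replicate 2 (adjusted p = 0.0818) and without any of the 3 control replicates (adjusted p from 0.0577 to 0.0995). Of 21 genes in the list of histone mRNA 3′ end processing and turnover, all tested, 5 were higher, 1 was lower and 15 were not called (28.6% called, against 40.2% of all genes tested), with a median log2 fold change of 0.02. The others called higher were ZNF473, a partner of the U7 particle that recognises the processing site (0.41), CASP8AP2, which makes the protein FLASH of the same machinery (0.36), CPSF3, the endonuclease that cuts the RNA (0.27), and CPSF2 (0.17). SRRT, whose protein links the RNA cap to processing, was lower (-0.17), a call that ended with FPKM (-0.05, adjusted p = 0.675), with the GC trend removed (-0.11, adjusted p = 0.0684) and without SNHG5 siRNA replicate 1 or 3 or control siRNA replicate 2 (adjusted p from 0.0740 to 0.0990). Of 23 genes in the list of ordinary cleavage and polyadenylation, which makes the ends of the variant mRNAs, 7 were higher, 1 was lower and 15 were not called (34.8% called), with a median of 0.04. CPSF7 (0.34) and NUDT21 (0.28), which form the factor that steers the choice of polyadenylation site, PPP1CB (0.33) and CSTF2T (0.27) were among the higher, and RBBP6 was lower (-0.23). The call of CSTF2T ended with FPKM (adjusted p = 0.0698 and 0.0644), with the GC trend removed (adjusted p = 0.0533) and without SNHG5 siRNA replicate 1 (adjusted p = 0.0534) or control siRNA replicate 3 (adjusted p = 0.0892). With FPKM plus 1 the calls of ZNF473 (0.26), CASP8AP2 (0.23), NUDT21 (0.17) and PPP1CB (0.21) held at smaller fold changes. The 2 lists share 2 called genes, CPSF2 and CPSF3. CASP8AP2 is also counted among the higher genes of the list of histone gene transcription at G1/S below.

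The lists that prepare histone genes and proteins for replication had larger medians than the lists of mRNA 3′ ends and of variant deposition. Each of these lists held a larger share of higher genes than the 20.3% of the table. The list of histone gene transcription at G1/S had 14 genes, with a median log2 fold change of 0.20. Of these, 7 were higher, 2 were lower and 5 were not called (64.3% called, against 40.2% of all genes tested). NPAT, the coactivator of the histone clusters that cyclin E and CDK2 phosphorylate, had 40.5, 40.2 and 42.3 CPM with SNHG5 siRNA, against 32.4, 33.1 and 34.9 CPM with control siRNA (log2 fold change 0.29 ± 0.07, adjusted p = 0.00155, edgeR). With limma on FPKM it was 0.17 with 1 added (adjusted p = 0.0541) and 0.22 with 0.1 added (adjusted p = 0.0548), so that the call ended. E2F1, a transcription factor of S-phase entry, had 89.7, 103 and 90.7 CPM with SNHG5 siRNA, against 55.1, 57.5 and 50.2 CPM with control siRNA (log2 fold change 0.80 ± 0.07, adjusted p = 2.76e-08, edgeR). CDC25A, the phosphatase that activates CDK2 (0.61), and CCNE2, a cyclin E (0.39), were higher as well, while NFYC (-0.49) and NFYB (-0.21), subunits of the factor that binds CCAAT, were lower. Replication-coupled histone supply and deposition had 18 genes, with a median of 0.25 and 72.2% called. Of these, 12 were higher, 1 was lower and 5 were not called. They included CHAF1A, the large subunit of the assembly factor CAF-1 (0.59), MMS22L (0.44, but 0.26 with FPKM plus 1), MCM2, a helicase subunit that also holds histones (0.39), and NASP, which stores H3 and H4 (0.36), and the lower gene was the importin gene IPO4 (-0.29). Variant deposition and exchange had 26 genes, with a median of 0.01 and 50% called. Of these, 7 were higher, 6 were lower and 13 were not called. UBN1 of the HIRA complex (0.38) and YEATS4 of the complex that deposits H2A.Z (0.40) were higher, while DAXX, a chaperone of H3.3 (-0.38), and APLF (-0.36) were lower. These do not stand for whole complexes. HIRA (0.01), UBN2 (-0.04) and CABIN1 (0.15) were not called, and ATRX was higher (0.20). DMAP1 (-0.34), RUVBL2 (-0.28) and KAT5 (-0.20) were among the lower genes. The call of APLF ended with DESeq2 (adjusted p = 0.153), with FPKM plus 0.1 (adjusted p = 0.0630) and without SNHG5 siRNA replicate 1 or 2 or control siRNA replicate 1 or 3 (adjusted p from 0.117 to 0.131). Whether these genes bear on the histone values was not tested.

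**Figure D5:**
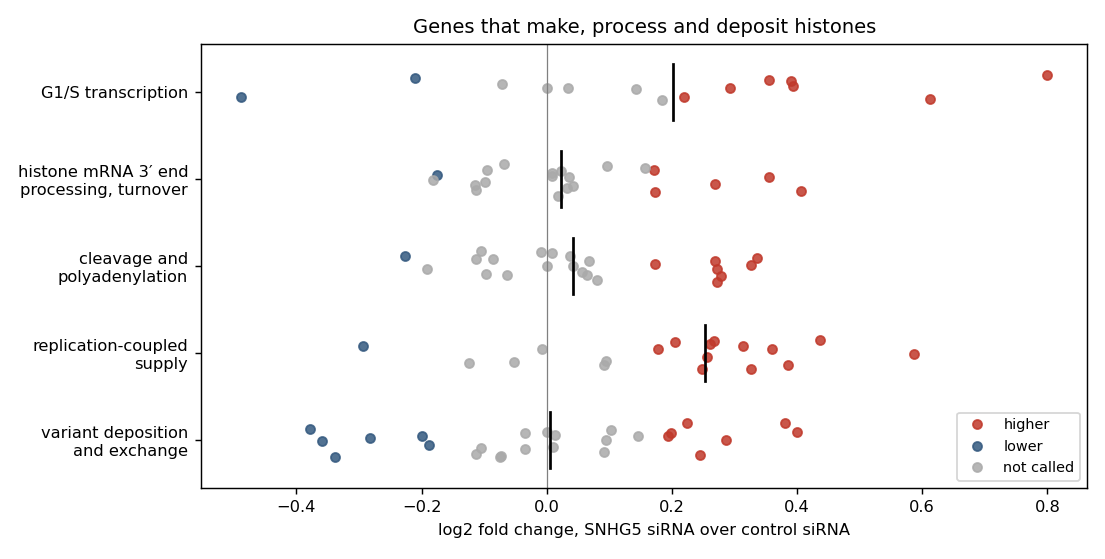
Log2 fold change, SNHG5 siRNA over control siRNA, of each tested gene (points; vertical spread has no meaning) in 5 gene lists of histone transcription, mRNA 3′ ends and histone deposition; colours mark genes called higher or lower and black bars the list medians. The medians are 0.20 for G1/S transcription and 0.25 for replication-coupled supply, against 0.02, 0.04 and 0.01 for the other lists.

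Total counts were 22088913, 19869165 and 19417645 in the SNHG5 siRNA libraries and 20479618, 20353451 and 18232634 in the control libraries. Of 15 granulosa markers 10 were tested, with 0 higher, 4 lower and 6 not called (40% called, against 40.2% of all genes tested). The lower genes were FST (log2 fold change -1.42), FSHR (-1.15), NR5A2 (-0.93) and GATA4 (-0.37). The summed CPM of the 15 markers was 537 to 577 with SNHG5 siRNA and 1052 to 1144 with control siRNA, mostly FST. FOXL2, not called, was at 28.6 CPM with SNHG5 siRNA and 25.3 CPM with control siRNA. CYP19A1, CYP11A1, AMHR2, INHA and HSD17B1 were too low to test. Summed markers of epithelial cells (8 genes, KRT20 and GRHL2 at 0) were 1.53 to 2.01 CPM with SNHG5 siRNA and 2.07 to 2.42 CPM with control siRNA. Endothelial markers (6 genes, CDH5 at 0) summed to 16.8 to 19.4 CPM with SNHG5 siRNA and 33.3 to 38.0 CPM with control siRNA, nearly all KDR. Fibroblast markers (8 genes, LUM at 0) summed to 5119 to 5407 CPM with SNHG5 siRNA and 6310 to 6688 CPM with control siRNA, mostly COL1A1; of the 6 tested, COL1A1 and COL3A1 were lower and COL1A2 was higher (log2 fold change 0.61, adjusted p = 1.47e-08, edgeR). The part of these differences in the histone values was not tested.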

How the data were processed

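Per the labels' protocols, each library was made from 1 µg of total RNA of KGN cells with a SMARTER kit for mRNA. Reads were trimmed with Trimmomatic and the genome build was GRCh38, per the submitters' processing notes; the aligner, the counting program, its use of strand and its annotation are not given in the sources used here. In the deposited table, entries are whole-number counts per gene name, not normalised by the authors. The deposited FPKM, which the authors computed with an unnamed program, served for levels between genes and as an alternative.

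Counts were scaled by TMM and tested across the whole table with edgeR 4.0.16 in R 4.3.3 (filterByExpr, quasi-likelihood test, 2-sided, Benjamini-Hochberg over 12508 genes). CPM are counts scaled to library size and TMM factor. DESeq2 1.42.0, limma 3.58.1 on log2 FPKM with 1 or 0.1 added, other scalings, no filter, length and GC trends, a replicate block and leaving out each library were the 16 alternatives. Adding 1 shrinks the log2 fold change of genes with low FPKM. The fit was also tested on simulated counts in which few genes were changed. That test does not bear on scaling in a table where 40.2% of genes were called. Floors of 3 counts cover counting error only. All 87 names were matched to GENCODE v29. Named genes were the tested members, the 3 highest untested ones, SLBP, NPAT, CASP8AP2, up to 4 called genes per list by size of change, and genes behind counts of 5 or fewer; HIST1H1E, HIST1H4C and the partner genes of promoter pairs were named after their values were seen. Members, lists and tests were chosen with earlier results of these data known.

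As a check on the selection of poly(A) RNA, 22 genes of RNAs without a poly(A) tail and 13 mitochondrial mRNAs were looked up; 0 of either were found among the gene names, so that check gave no value. A list of 9 nominally replication-dependent genes with known poly(A) transcripts had 6 tested members, with a median log2 fold change of 0.34. Of these, 3 were higher, 0 lower and 3 not called (50% called, against 40.2% of all genes tested). The higher genes were HIST1H1C, HIST1H2BD and HIST1H2BK, already described above. With DESeq2 only the call of HIST1H2BD held. Another marker list is not reported here.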

Additional observations from a re-analysis of the deposited data

How the results depend on the processing

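Of the 71 replication-dependent genes, 12 were tested and 4 called in the reported edgeR fit. With DESeq2 1 was called, and 1 to 3 when single libraries were left out. Of the 16 variant genes, 11 were tested and 6 called in the reported fit. With upper-quartile scaling 3 were called, and 3 to 5 when single libraries were left out. Upper-quartile scaling also gave 39.9% of all called genes as higher, against 50.5%. The median log2 fold change of variant genes was 0.05, and 0.0081 with upper-quartile scaling, 0.089 with FPKM plus 0.1, 0.10 with the GC trend removed and 0.10 with the GC trend removed and the replicate block; it ran from 0.016 to 0.10 with single libraries left out. The log2 ratio of summed variant CPM was 0.05, and 0.13 from FPKM. Calls over all genes moved as well. They were 5026 of 12508 tested as reported and 4287 of 15924 fitted with DESeq2. With upper-quartile scaling they were 5144 of 12508, and with single libraries left out 3991 to 5608. The cause of these shifts was not tested.

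Signs turned round for 5 members that did not pass as reported. H1F0 was -0.0070 with upper-quartile scaling, -0.0029 without SNHG5 siRNA replicate 2 and -0.0064 without control siRNA replicate 1. H1FX was -0.039 with that scaling and ran from -0.050 without control siRNA replicate 3 to 0.056 without control siRNA replicate 2. H2AFJ was -0.025 with that scaling, -0.0089 and -0.014 with FPKM plus 1 and plus 0.1, and -0.0298 and -0.0303 with the GC trend removed, without and with the block, and ran from -0.038 without SNHG5 siRNA replicate 2 to 0.076 without control siRNA replicate 1. HIST1H2BC ran from -0.22 without control siRNA replicate 1 to 0.59 without control siRNA replicate 2. HIST2H2AC was 0.26 and 0.39 with FPKM plus 1 and plus 0.1.

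Members that became called were H1FX with the GC trend removed (0.15, adjusted p = 0.0278), H3F3C with FPKM plus 0.1 (adjusted p = 0.0441) and HIST1H3E without SNHG5 siRNA replicate 2 (-1.16, adjusted p = 0.0474). Deviations from the group means of same-numbered libraries correlated at 0.05, 0.13 and 0.03, so the numbers were not taken to pair the samples. With the replicate block 5714 genes, 4 replication-dependent and 6 variant members were called. Of the replication-dependent genes 59 had too few counts to test, and the cause was not tested.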

Other observations

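CENPA, the H3 variant that marks centromeres and which the name rule does not take in, was chosen after its value was seen. It had 34.3, 34.8 and 32.8 CPM with SNHG5 siRNA, against 28.8, 27.4 and 29.7 CPM with control siRNA, without overlap, and was called higher (log2 fold change 0.25 ± 0.07, adjusted p = 0.00941, edgeR). Of the other genes with the stem-loop in a GENCODE transcript, 25 are protein-coding genes outside the names searched. The 59 untested replication-dependent genes together had 110, 91 and 87 counts with SNHG5 siRNA and 85, 90 and 69 counts with control siRNA, which overlap; scaled to library size they had 4.97, 4.58 and 4.48 CPM with SNHG5 siRNA and 4.15, 4.43 and 3.79 CPM with control siRNA, which do not.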
